A study of Mus musculus with 18 samples.

Results

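Hypoxia pathway genes were followed through the erythroid progenitors of irradiated and normal mice: Hif1a, Epas1, Arnt, Vhl, Egln1, Egln2, Egln3, Vegfa, Ddit4 and P4ha1, which are 10 of the 24072 genes in the spleen count table. They were chosen by name, as rows of the count tables and as peaks carrying that gene name in the ATAC-seq lists, by a rule that uses no measured value. All 10 had a row in the spleen table and 8 had one in the BFU-E table, which lacks Epas1 and Ddit4. The 2 peak lists assigned them 50 peaks in stress BFU-E and 29 in BM BFU-E.

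All animals were of the B6SJL background. Stress populations came from spleens taken on day 8 after lethal irradiation and a transplant of unfractionated bone marrow, and were labelled CFU-E (CD9-negative), BFU-E (Sca-negative) and MPP (Sca-positive). The fourth population was steady-state BFU-E (Sca-negative) from bone marrow (BM), for which the labels give no irradiation or transplant. BFU-E and CFU-E are earlier and later erythroid colony-forming progenitors, and MPP are multipotent progenitors. RNA-seq had 3 libraries of each population, and ATAC-seq, which reads open chromatin, had 3 of each BFU-E population, deposited as 1 peak list a population. Cells were sorted after magnetic removal of lineage-positive cells, and a different streptavidin dye was used for steady-state cells. Tissue, irradiation, transplantation and staining therefore differ together between the BFU-E populations and cannot be told apart. The labels do not say whether libraries came from separate animals, so p-values measure the spread between these libraries only.

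Library totals were 5937778 to 13197159 counts in the spleen table, and 10555143 to 12926718 in stress BFU-E against 6758871 to 9463498 in BM BFU-E in the BFU-E table. The 3 BM libraries stood apart: their log2 CPM (counts scaled to a common library total) correlated with each other at 0.58 to 0.709, against 0.939 to 0.948 among stress BFU-E, and 1.53% to 15.3% of genes were at 0 in them, against 0.42% to 0.738%. Summed erythroid markers were 628 to 701 CPM in MPP, 631 to 700 CPM in BFU-E and 2360 to 2420 CPM in CFU-E. Summed MPP markers were 301 to 366, 89.1 to 113 and 15.2 to 18.8 CPM in the same order. The near-equal erythroid sums of MPP and BFU-E hide changes of single genes. Of the 8 erythroid markers, 4 were higher in BFU-E and 1 lower at an adjusted p under 0.05 by edgeR's quasi-likelihood test. The 1 lower was Car2, the most abundant, at 464 ± 16 CPM in MPP and 353 ± 18.7 CPM in BFU-E (SD, n = 3 each). Lymphoid markers summed to at most 15.5 CPM in any spleen library.

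In the hypoxia pathway, prolyl hydroxylases (Egln1, Egln2 and Egln3) use oxygen to mark the alpha subunits of hypoxia-inducible factor (HIF, encoded by Hif1a and Epas1), and the marked subunits are bound by the Vhl protein and degraded. When oxygen is low the alpha subunits persist, pair with the Arnt protein and switch on genes such as Vegfa, Ddit4 and P4ha1. In red cell formation the pathway is known above all for the control of erythropoietin, and in humans inherited changes in VHL, EGLN1 and EPAS1 can cause an excess of red cells. The alpha subunits are regulated chiefly as proteins, which RNA-seq does not measure.

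The regulatory sequences of the 4 members whose RNA differed between spleen populations are shown because they hold the hypoxia response core at or near regions of open chromatin. Promoters run from 250 bases before to 50 after the annotated start and come from RefSeq on build GRCm38.p6. The Hif1a window is chr12:73907617-73907916 on the plus strand, the Egln1 window chr8:124949205-124949504 on the minus strand, the Egln3 window chr12:54203825-54204124 on the minus strand and the P4ha1 window chr10:59323046-59323345 on the plus strand. The fifth sequence is the central 300 bases of a peak in intron 1 of Egln3, chr12:54191895-54192194, given on the gene's strand because the first intron of human EGLN3 is known to hold a hypoxia response element. Capitals mark the core, ACGTG or GCGTG, read on either strand, so that CACGT and CACGC also appear and the palindrome CACGTG matches on both.
Hif1a promoter: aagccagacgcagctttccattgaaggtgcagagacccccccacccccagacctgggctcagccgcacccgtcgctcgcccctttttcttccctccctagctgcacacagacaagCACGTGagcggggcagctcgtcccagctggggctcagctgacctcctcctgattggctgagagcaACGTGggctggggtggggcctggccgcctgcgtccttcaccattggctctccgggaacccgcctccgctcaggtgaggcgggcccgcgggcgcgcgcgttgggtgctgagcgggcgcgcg
Egln1 promoter: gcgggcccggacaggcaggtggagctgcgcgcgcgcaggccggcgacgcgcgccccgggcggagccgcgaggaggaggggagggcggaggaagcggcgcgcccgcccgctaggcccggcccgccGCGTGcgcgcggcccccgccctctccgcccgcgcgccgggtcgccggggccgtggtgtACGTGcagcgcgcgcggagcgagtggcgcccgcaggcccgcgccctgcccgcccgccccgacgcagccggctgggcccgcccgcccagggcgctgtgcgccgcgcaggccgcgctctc
Egln3 promoter: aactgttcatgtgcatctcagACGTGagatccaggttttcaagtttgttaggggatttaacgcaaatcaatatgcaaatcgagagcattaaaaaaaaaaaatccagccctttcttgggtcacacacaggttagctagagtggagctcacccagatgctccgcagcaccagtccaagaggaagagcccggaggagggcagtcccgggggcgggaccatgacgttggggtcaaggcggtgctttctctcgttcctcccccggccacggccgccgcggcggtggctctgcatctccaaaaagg
Egln3 intron 1 peak centre: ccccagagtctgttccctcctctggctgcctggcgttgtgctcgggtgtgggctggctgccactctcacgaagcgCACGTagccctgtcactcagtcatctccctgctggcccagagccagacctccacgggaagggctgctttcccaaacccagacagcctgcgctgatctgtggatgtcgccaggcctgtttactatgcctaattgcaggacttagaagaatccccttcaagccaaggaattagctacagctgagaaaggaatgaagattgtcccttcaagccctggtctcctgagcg
P4ha1 promoter: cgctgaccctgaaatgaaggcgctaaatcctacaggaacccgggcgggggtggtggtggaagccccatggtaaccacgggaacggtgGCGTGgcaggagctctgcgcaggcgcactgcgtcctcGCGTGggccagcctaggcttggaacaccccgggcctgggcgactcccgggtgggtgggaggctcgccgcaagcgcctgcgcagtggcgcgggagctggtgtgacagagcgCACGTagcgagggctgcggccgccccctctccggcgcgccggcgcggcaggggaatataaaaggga

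The core is common, since 43.8% of 32851 promoter windows and 63.1% of those under a stress BFU-E peak hold it. It stood in 2 separate places in the Hif1a and Egln1 windows, 3 in P4ha1, 1 in Egln3 and 1 in the Egln3 intron peak. The main windows of Arnt, Egln2 and Ddit4 held 1, 5 and 2, and those of Vhl and Vegfa held none of these letters. The table of promoters had no entry for Epas1.

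Levels between genes were compared in RPKM, mapped reads scaled for library size and transcript length. Egln2 was the highest member in the 3 spleen populations, at 15.2 ± 2.18 RPKM in MPP, 13.4 ± 1.62 RPKM in BFU-E and 14.3 ± 2.91 RPKM in CFU-E (SD, n = 3 each). Hif1a came second in MPP and BFU-E, at 11.5 ± 3.37 and 12.4 ± 3.32 RPKM, and its range overlapped that of Egln2 in both. In CFU-E the second place was held by Egln1 at 10.7 ± 2.1 RPKM, ahead of Hif1a at 7.97 ± 1.2 RPKM, with ranges of 8.34 to 12.31 and 6.6 to 8.83 RPKM that overlapped. Arnt, at 9.14, 7.63 and 7.95 RPKM in the 3 populations, and Egln1 in MPP and BFU-E, at 8.21 and 6.52 RPKM, completed the upper group. Vegfa lay at 3.86 to 4.6 RPKM and Vhl at 2.81 to 3.58 RPKM, with P4ha1, Egln3 and Ddit4 lower in BFU-E and CFU-E. Epas1 was the lowest member in every population, at 0.583, 0.0833 and 0.00333 RPKM from MPP to CFU-E. Neighbours in the order were separated in range between Egln1 and Vegfa and between Ddit4 and Epas1 in MPP. In CFU-E they were separated between Arnt and Vegfa, Vhl and Ddit4, P4ha1 and Egln3, and Egln3 and Epas1. In BFU-E those from Hif1a down to Vhl were separated, as were P4ha1 from Egln3 and Ddit4 from Epas1, and other neighbours overlapped.

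In BM BFU-E the order, from a separately normalised table, began with Hif1a at 15.3 ± 3.47 RPKM, Arnt at 9.27 ± 1.53 RPKM, Vegfa at 8.97 ± 2.89 RPKM and Egln2 at 7.47 ± 4.27 RPKM (SD, n = 3). Egln1, P4ha1, Vhl, Ddit4 and Egln3 followed at 6.81, 4.34, 2.76, 0.927 and 0.27 RPKM. Epas1 was again last at 0.00333 RPKM. Hif1a, with a lowest library of 11.46 RPKM, was separated from Arnt, with a highest of 10.75 RPKM, and the other neighbours in this order overlapped in range.

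**Figure D1:**
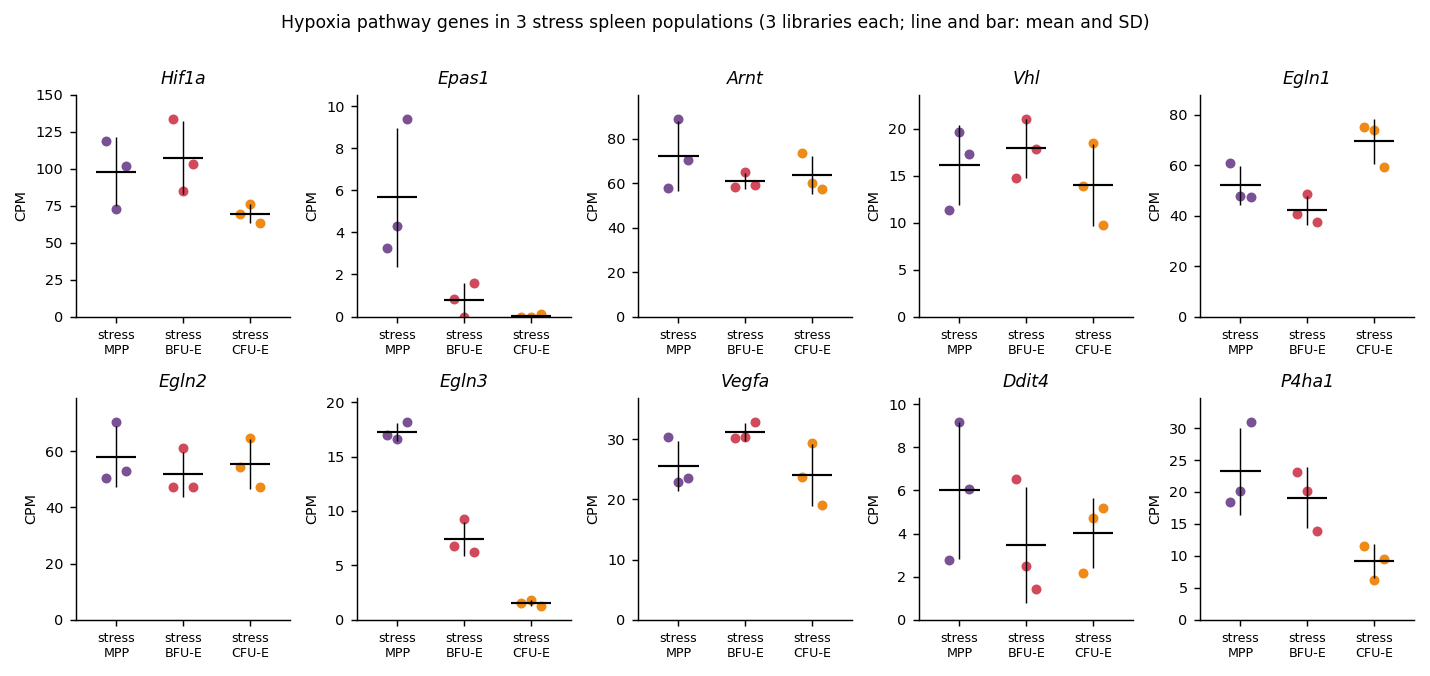
CPM (vertical axis from 0) of the 10 genes in stress MPP, BFU-E and CFU-E. Points are libraries, the line is the mean and the bar the SD of 3. Egln3 steps down through the 3 populations with means of 17.3, 7.42 and 1.52 CPM, and Egln1 is highest in CFU-E.

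The oxygen sensors moved in different directions in CFU-E against BFU-E. Among 10166 genes with a mean of at least 50 counts, edgeR's quasi-likelihood test called 21.1% at an adjusted p under 0.05, with 9.17% of all genes higher and 11.9% lower in CFU-E. Of the 8 members tested 4 were called. Egln1 rose, and Egln3, P4ha1 and Hif1a fell. The median log2 fold change of the 8 was -0.36, beside -0.002 over all genes tested. In bulk libraries, fewer cells of a type and less RNA per cell cannot be told apart.

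Egln3, a prolyl hydroxylase that is itself a HIF target, fell most. It had 1.55, 1.78 and 1.22 CPM in CFU-E, against 6.81, 9.23 and 6.22 CPM in BFU-E. The highest CFU-E library was below the lowest BFU-E library, which held for 19.3% of all genes tested. Its log2 fold change was -2.28 with a standard error (SE) of 0.52, and the adjusted p was 0.003.

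Egln1, the chief hydroxylase of HIF under normal oxygen, ran the other way. It had 75.2, 74 and 59.1 CPM in CFU-E, against 40.7, 48.4 and 37.3 CPM in BFU-E. All CFU-E libraries were above all BFU-E libraries, as for 18.2% of genes. The log2 fold change was 0.72 (SE 0.19, adjusted p = 0.0083). Egln2, the remaining hydroxylase, which shares 11 exonic bases with Cyp2t4 on the opposite strand, averaged 55.4 ± 8.85 CPM in CFU-E and 51.8 ± 8.08 CPM in BFU-E (SD, n = 3 each), with overlapping libraries and an adjusted p of 0.79.

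Hif1a had 69.7, 76.5 and 63 CPM in CFU-E, against 134, 85.1 and 103 CPM in BFU-E. The populations did not overlap, although the lowest BFU-E library lay close to the highest CFU-E library. The log2 fold change was -0.62 (SE 0.19, adjusted p = 0.02), and the call was lost without CFU-E replicate 1 (adjusted p = 0.056), CFU-E replicate 3 (0.075) or BFU-E replicate 1 (0.16). Hif1a shares 330 exonic bases with an antisense gene, Gm15283, and 148 with Gm49321 on its own strand, and the strand setting of the counting is not given in the sources used here.

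P4ha1, the catalytic subunit of a collagen prolyl hydroxylase, had 11.6, 6.27 and 9.56 CPM in CFU-E, against 23.2, 20.2 and 13.9 CPM in BFU-E. It was lower in every CFU-E library. The log2 fold change was -1.06 (SE 0.36, adjusted p = 0.04), and the call was lost without CFU-E replicate 2 (adjusted p = 0.15), CFU-E replicate 3 (0.078), BFU-E replicate 1 (0.16) or BFU-E replicate 2 (0.11). The calls of Egln1 and Egln3 held without any single library, with highest adjusted p-values of 0.049 for Egln1, just under the threshold, and 0.013 for Egln3.

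Arnt, the partner of both alpha subunits, averaged 63.6 ± 8.7 CPM in CFU-E and 60.9 ± 3.73 CPM in BFU-E, with a log2 fold change of 0.06 and a 95% interval of -0.32 to 0.44. Vhl, the substrate receptor of the ligase that removes HIF, averaged 14.1 ± 4.37 CPM in CFU-E and 17.9 ± 3.15 CPM in BFU-E, with an interval of -1.1 to 0.4. Vegfa, a growth factor for blood vessels, had 19 to 29.3 CPM in CFU-E and 30.2 to 32.9 CPM in BFU-E. These libraries did not overlap either, and the adjusted p was 0.34.

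Markers of other lineages moved between the same libraries. The 6 megakaryocyte markers summed to 85.6 to 106 CPM in CFU-E and 1510 to 1790 CPM in BFU-E, and all 6 were called lower. The 10 granulocyte and monocyte markers summed to 24.9 to 85.6 CPM in CFU-E and 708 to 842 CPM in BFU-E, with 6 of the 9 tested called lower. The 4 endothelial markers summed to 46.8 to 67.3 CPM in CFU-E and 157 to 220 CPM in BFU-E. These sums came from Pecam1, Kdr and Tek, since Cdh5 averaged 0 CPM in CFU-E and 0.175 CPM in BFU-E. Macrophage markers summed to at most 48.6 CPM in any spleen library, with 4 to 8 of the 10 at 0. Their part in the changes of Egln3, P4ha1, Hif1a and Egln1 was not tested.

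Between CFU-E and MPP, 28.8% of genes were called, with 16% of all genes lower in CFU-E, and 2 of the 8 members were called, both lower. Egln3 had 1.55, 1.78 and 1.22 CPM in CFU-E, against 17, 16.6 and 18.2 CPM in MPP. The libraries did not overlap, as for 21.2% of genes lower in CFU-E. Its log2 fold change was -3.49 (SE 0.54, adjusted p = 4.3e-05). P4ha1 had 6.27 to 11.6 CPM in CFU-E, against 18.5 to 31 CPM in MPP, with a log2 fold change of -1.34 (SE 0.36, adjusted p = 0.0079), which passed the threshold no longer without MPP replicate 3 (adjusted p = 0.058). Hif1a, at -0.5 (adjusted p = 0.052), lay just outside the threshold, and its CFU-E and MPP libraries overlapped. It passed with the replicate number as a block (adjusted p = 0.048), with DESeq2 (0.048), with no filter on low counts (0.021) and without MPP replicate 2 (0.0078). Megakaryocyte markers summed to 85.6 to 106 CPM in CFU-E and 886 to 1030 CPM in MPP, with all 6 called lower. Granulocyte and monocyte markers summed to 24.9 to 85.6 CPM in CFU-E and 127 to 563 CPM in MPP, with 5 of the 9 tested called lower, and endothelial markers to 46.8 to 67.3 CPM in CFU-E and 136 to 206 CPM in MPP, with 3 of 3 tested called lower. Of the endothelial markers, Cdh5 averaged only 0.301 CPM in MPP and 0 CPM in CFU-E. The part of all these markers in the changes of Egln3 and P4ha1 was not tested. The 3 spleen comparisons share libraries, so their results are not independent.

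Between BFU-E and MPP, 4.13% of genes were called and none of the 8 members was. Egln3 was the 1 member with an unadjusted p under 0.05, which 15.8% of all genes had. Egln3 had 6.81, 9.23 and 6.22 CPM in BFU-E, against 17, 16.6 and 18.2 CPM in MPP. All BFU-E libraries were below all MPP libraries, as for 10.8% of genes, and the log2 fold change was -1.22 (SE 0.49, adjusted p = 0.2). The other 7 had log2 fold changes of -0.3 to 0.28, with libraries that overlapped.

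Epas1, which encodes the second HIF alpha subunit, and Ddit4, an inhibitor of mTOR signalling, fell below the mean of 50 counts required for testing. Epas1 had 42, 25 and 73 counts in the MPP libraries, 11, 0 and 20 in BFU-E, and 0, 0 and 1 in CFU-E. MPP held the most counts in each case, and no fold is given against CFU-E, where only 1 count was seen. An exact two-sided permutation test of log2(RPKM + 1) gave p = 0.1 for CFU-E against MPP and for BFU-E against MPP, which is the smallest p that 3 against 3 libraries allow, and p = 0.4 for CFU-E against BFU-E. The alternative count fit with no filter, read for Epas1 and Ddit4 after seeing the data, gave Epas1 an adjusted p of 0.00074 for CFU-E against MPP, 0.064 for CFU-E against BFU-E and 0.34 for BFU-E against MPP. Ddit4 averaged 6 ± 3.19 CPM in MPP, 3.47 ± 2.68 CPM in BFU-E and 4.03 ± 1.63 CPM in CFU-E, and its libraries overlapped throughout.

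**Figure D2:**
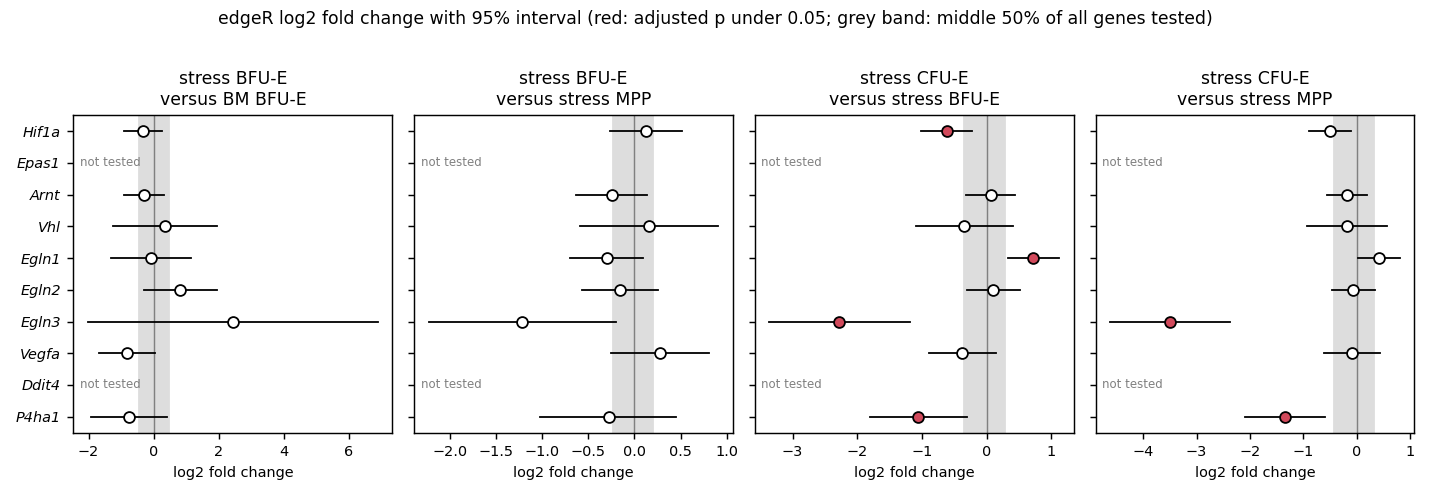
Log2 fold change of each tested member (points, with 95% intervals) in 4 comparisons, on horizontal axes of different range. Red points have an adjusted p under 0.05 and the grey band runs between the quartiles of all genes tested. Egln3 lies left of the band at -2.28 and -3.49 in the CFU-E comparisons, and Egln1 lies right of it at 0.72 in CFU-E over BFU-E.

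The genes with profiles most like the 4 called members, by Pearson's r of log2(CPM + 1) over the 9 spleen libraries, are given as a description. For Egln3 they were Elmo1 (r = 0.995), Mecom (0.991) and Afap1l1 (0.989), and Mecom is one of the MPP markers. For Egln1 they were Vac14 (0.974), Nudt1 (0.968) and Dhx37 (0.957). For Hif1a they were Capzb (0.971), Tmem206 (0.966) and Aurkb (0.944), and for P4ha1 Rabep2 (0.977), Tab1 (0.966) and Jag2 (0.965). The 9 libraries are 3 of each population, so differences between populations set much of each value.

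Regulators of HIF outside the members, 16 genes of which 15 were tested in the spleen table, gave 5 calls in CFU-E against BFU-E, with 3 genes up and 2 down, or 33.3% of those tested beside 21.1% of all genes. Hif3a, which encodes a further alpha subunit, averaged 36.3 ± 7.17 CPM in CFU-E and 3.09 ± 2.57 CPM in BFU-E (SD, n = 3 each), a log2 fold change of 3.54 (adjusted p = 0.0017). Cited2, which competes with HIF for the coactivators Ep300 and Crebbp, averaged 60.8 ± 14.9 CPM in CFU-E and 209 ± 18.3 CPM in BFU-E, a log2 fold change of -1.78 (adjusted p = 2e-08). Hsp90ab1, a chaperone, and Gnb2l1 (also called Rack1), a scaffold protein, rose by 0.43 and 0.3 on the log2 scale, and Crebbp fell by 0.32. The list's median was 0.09, beside -0.002 over all genes.

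Genes known to be induced by hypoxia formed a list of 51, of which 34 were tested in the spleen table. Between CFU-E and BFU-E 4 rose and 7 fell, or 32.4% of those tested beside 21.1% of all genes, and the median was -0.11. Those that fell include the glucose transporters Slc2a1 (-1.35) and Slc2a3 (-1.09), the glycolytic genes Pfkfb3 (-0.62) and Pfkp (-0.54), Ndrg1 (-1.65), which led, and Narf (-0.67). The Slc2a1 libraries overlapped, at 7.43 ± 4.24 CPM in CFU-E and 19 ± 9 CPM in BFU-E. The 4 that rose were Mt1, a metallothionein, by 2.12, Tfrc, the transferrin receptor, by 1.34, the hexokinase Hk1 by 0.53 and Fam162a by 0.5. Hk2, another hexokinase, was among those that fell, at -0.53, so the hexokinases moved in opposite directions. Tfrc is also an erythroid marker and encodes CD71, a surface antigen stained in the sorts. Tfrc averaged 293 ± 39.9 CPM in CFU-E and 116 ± 13.6 CPM in BFU-E, and Ndrg1 averaged 64.1 ± 21.1 CPM in CFU-E and 201 ± 19.8 CPM in BFU-E.

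Between CFU-E and MPP, 33.3% of the 15 regulators and 35.3% of the 34 targets tested were called, beside 28.8% of all genes, and 3 regulators rose (Hif3a 3, Gnb2l1 0.61, Hsp90ab1 0.19) and 2 fell (Cited2 -1.38, Crebbp -0.45). Among the targets 5 rose and 7 fell, led by Mt1 at 2.24 and Tfrc at 1.83 among those that rose, and by Slc2a1 at -1.76, Plod2 at -1.31, Slc2a3 at -1.04 and Pdk1 at -1.02 among those that fell. The Plod2 libraries overlapped between CFU-E and MPP. Between BFU-E and MPP, 13.3% of the regulators and 11.8% of the targets were called, beside 4.13% of all genes. Gnb2l1 rose by 0.32 and Hsp90ab1 fell by 0.24 among the regulators. Of the targets, Ndrg1 (0.86), Narf (0.79) and the lactate dehydrogenase Ldha (0.35) rose and Bhlhe40, a transcriptional repressor, fell by 1.41 on the log2 scale. Ndrg1 and Narf were thus higher in BFU-E than in each of the other spleen populations. Gapdh was listed at only 1.05 CPM in CFU-E and 4.04 CPM in BFU-E, and values of glycolytic genes with near-identical copies are uncertain, since how reads shared with the copies were counted is not given.

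**Figure D3:**
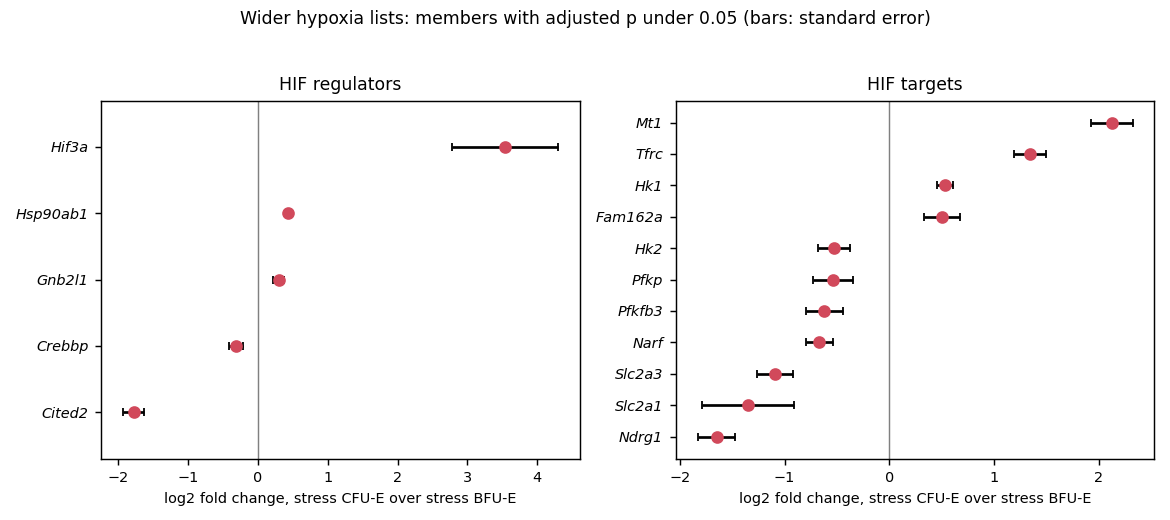
Log2 fold change in stress CFU-E over stress BFU-E, with SE as bars, of the 5 regulators (left) and 11 targets (right) that passed the test. Hif3a lies farthest right among the regulators at 3.54 and Cited2 farthest left at -1.78, and Mt1 and Ndrg1 are the extremes of the targets.

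Stress BFU-E were set against BM BFU-E to ask how erythropoiesis under stress differs from the steady state. edgeR called 0.112% of 10702 genes and 0 of the 8 members. None of the 8 had an unadjusted p under 0.05, which 9.84% of all genes had. DESeq2 with a local dispersion trend also called 0 members, beside 685 of the 10702 genes. The common biological coefficient of variation was 0.704 in these 6 libraries, against 0.25 in the 9 spleen libraries, so the intervals were wide. The median log2 fold change of the members was -0.18, beside 0.011 over all genes tested.

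Vegfa came nearest to the threshold. It had 30.6, 30.9 and 33.5 CPM in stress BFU-E, against 68.5, 37.6 and 63 CPM in BM BFU-E. All stress libraries were below all BM libraries, which held for 9.08% of genes, and the log2 fold change was -0.83 (SE 0.37, unadjusted p = 0.056 and adjusted p = 0.52 by edgeR's quasi-likelihood test). P4ha1 was lower in each stress library too, at 23.5, 20.6 and 14.1 CPM in stress BFU-E, against 32.5, 24.4 and 41.6 CPM in BM BFU-E, with a log2 fold change of -0.76 and an adjusted p of 0.7.

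In the counts, Egln3 was the one member higher in every stress library. It had 91, 100 and 79 counts in stress BFU-E, against 0, 32 and 1 in BM BFU-E. The table keeps genes with a mean of 50 counts in at least 1 population, so Egln3 entered it through its stress libraries. BM replicate 2 held nearly all the BM counts, and non-overlap in this direction held for 12.8% of genes. The fitted log2 fold change was 2.44 with a 95% interval of -2.02 to 6.89 (adjusted p = 0.76), and without BM replicate 2 it was 6.59. In the 12-library RPKM values, whose BM columns do not match these counts, Egln3 ran the other way. It had 3.14 to 5.82 RPKM there in BM BFU-E and 1.27 to 1.81 RPKM in stress BFU-E. Egln2 averaged 52.6 ± 8.29 CPM in stress BFU-E and 29.7 ± 17.6 CPM in BM BFU-E, with overlapping libraries and a log2 fold change of 0.82 (interval -0.3 to 1.95).

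The other members overlapped between the BFU-E populations. Hif1a averaged 109 ± 25 CPM in stress BFU-E and 137 ± 28.7 CPM in BM BFU-E, with an interval of the log2 fold change of -0.92 to 0.27. Arnt averaged 61.9 ± 3.89 and Vhl 18.2 ± 3.25 CPM in stress BFU-E, against 75.7 ± 14.3 and 14.2 ± 6.3 CPM in BM BFU-E. Egln1 averaged 42.8 ± 5.77 CPM in stress BFU-E and 45.1 ± 31.7 CPM in BM BFU-E, where its libraries ran between 18.8 and 80.3 CPM. Ddit4, which is in the RPKM table only, had 2.19, 0.78 and 0.46 RPKM in stress BFU-E, against 2.59, 0.19 and 0 RPKM in BM BFU-E, and an exact permutation test gave p = 0.6. Epas1 did not exceed 0.16 RPKM in any stress or 0.01 RPKM in any BM library.

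None of the 14 regulators and 36 targets tested was called between the BFU-E populations, beside 0.112% of all genes, and the medians were 0.21 and 0.15. An unadjusted p under 0.05 by edgeR was reached by 1 of the 14 and 3 of the 36. Over all genes 9.84% reached it, so these counts do not set the lists apart. The 4 list genes that reached it were Gnb2l1, Tfrc, Ldha and Slc2a3, at log2 fold changes of 0.52, 1.51, 0.64 and 0.65 with adjusted p-values of 0.33, 0.21, 0.31 and 0.36. Of the abundant list genes, Hsp90ab1 averaged 4890 ± 130 CPM in stress BFU-E and 4320 ± 288 CPM in BM BFU-E, Hk1 577 ± 29 CPM in stress BFU-E and 463 ± 115 CPM in BM BFU-E, and P4hb 517 ± 21.1 CPM in stress BFU-E and 667 ± 171 CPM in BM BFU-E. Macrophage markers in the table, 4 of 10, summed to 32.7 to 47.7 CPM in stress BFU-E and 165 to 199 CPM in BM BFU-E. Summed granulocyte and monocyte markers were 718 to 851 CPM in stress BFU-E and 915 to 2210 CPM in BM BFU-E. The 4 MPP markers in the table summed to 90.3 to 114 CPM in stress BFU-E and 255 to 332 CPM in BM BFU-E. Their part in the values of Vegfa, P4ha1 and Egln3 was not tested.

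**Figure D4:**
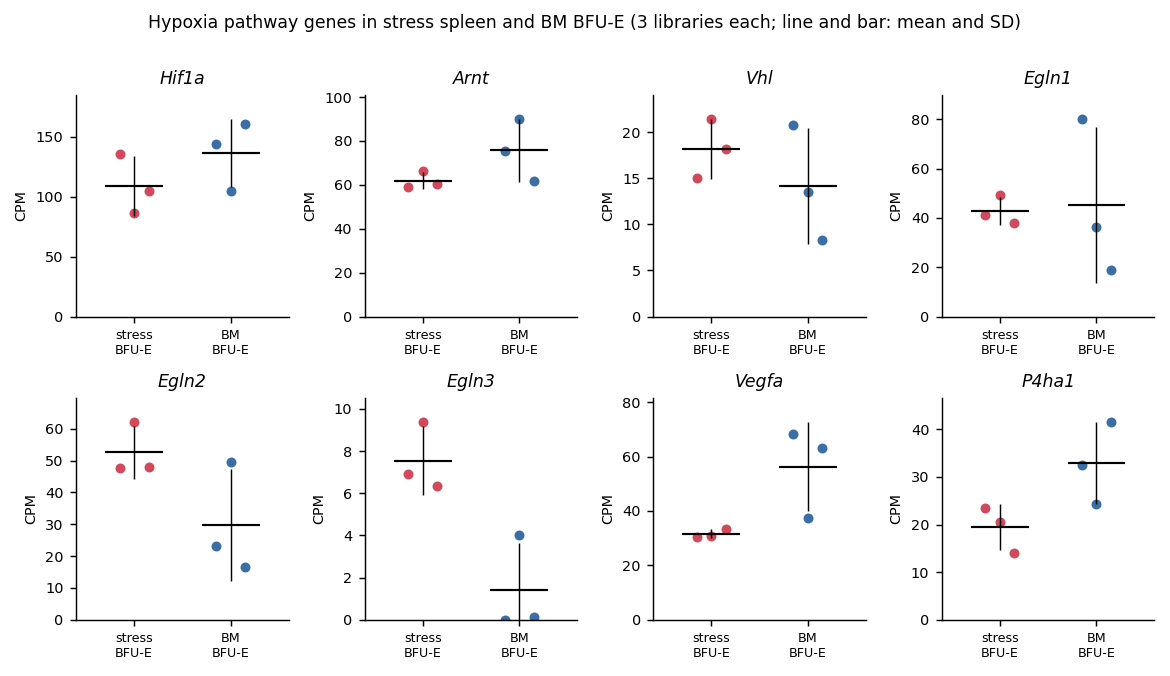
CPM (vertical axis from 0) of the 8 members in the BFU-E count table, in stress spleen BFU-E (left) and BM BFU-E (right). Points are libraries, the line is the mean and the bar the SD of 3. BM libraries spread more widely, as for Egln1 between 18.8 and 80.3 CPM, and Egln3 is at 0 CPM in 1 BM library.

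Open chromatin around the members was compared between the same BFU-E populations. Coordinates are those of the deposited lists, on build mm10. The lists held 61661 stress and 35142 BM peaks after repeated entries of 1 interval were merged, and carry the authors' score per peak, which runs from 415 to 1000. They hold no value per library, so the comparison has no replicate error. Scores ran higher in the stress list over all genes, with a median of 992, against 811 in the BM list. Of all peaks within 1 kb of a start, 76.7% in the stress list and 54.3% in the BM list scored 1000. Of the 50 member peaks in stress BFU-E, 19 (38%) overlapped no BM peak, against 45% of all stress peaks. Of the 29 member peaks in BM BFU-E, 1 (3.45%) overlapped no stress peak, against 4.52% of all BM peaks. Of 10 member stress peaks within 1 kb of a start, 1 had no BM peak (10%, against 16.9% of all), and of 40 farther off 18 had none (45%, against 53.3%). The 1 BM peak without a stress peak lies within 1 kb of a start, where 1.1% of all BM peaks have none, against 6.23% of those farther off. Of 32851 promoter windows, 44.2% lay under a stress peak, 39% under a BM peak and 5.8% under a stress peak alone. The main windows of 8 of the 9 members in the promoter table were open in both lists, and that of Egln1 was open in BM BFU-E only. Second windows of Egln2 and Vegfa were open in neither list, and the shares of all windows include second start sites.

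P4ha1 had 3 stress peaks and no named BM peak, but 2 BM peaks without any gene name lie over it, chr10:59322855-59324224 with score 1000 and chr10:59334924-59336162 with score 528. Both overlap stress peaks of P4ha1, chr10:59323022-59324191 and chr10:59334925-59335769, with scores of 1000 and 801, so P4ha1 does not lack open chromatin in BM BFU-E. Gene names were blank for 3.64% of stress and 3.44% of BM peaks. The third stress peak of P4ha1, chr10:59348251-59348630 in intron 6, had no BM counterpart.

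The start of Egln1 was the exception in the other direction. A BM peak of score 450, chr8:124949063-124949924, covers its promoter window, core included, and no stress peak overlaps it. That score is near the list's minimum of 415. Another stress peak over the gene, chr8:124921900-124922914 with score 549, carries the name of Sprtn and has no BM counterpart. Both populations had a peak just inside the gene, chr8:124947693-124948348 in stress BFU-E with score 1000 and chr8:124947690-124948812 in BM BFU-E with score 887. The Egln1 RNA of these populations overlapped, as given above.

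Egln3 had 10 peaks in stress BFU-E and 6 in BM BFU-E by name. Some in each list lie in another gene, such as chr12:54067642-54068702 in stress BFU-E, at 135702 bases from the Egln3 start. The printed intron 1 sequence is the centre of chr12:54191722-54192367 in stress BFU-E, which overlaps chr12:54191609-54192542 in BM BFU-E, and both have a score of 1000. The promoter peak scored 1000 in stress BFU-E (chr12:54203089-54204179) and 712 in BM BFU-E (chr12:54202784-54204192), in lists where stress scores ran higher over all genes. The 4 stress peaks with no BM peak were chr12:54186904-54188077 in intron 1, with score 956, and the intergenic chr12:54098803-54099124, chr12:54209248-54209503 and chr12:54216632-54217590, with scores of 710, 463 and 614. Of the 10, 7 held the core in their central 300 bases. The share varied among members, with 7 of 9 stress peaks of Ddit4, 4 of 11 of Epas1, 1 of 7 of Vegfa, 0 of 3 of P4ha1 and 0 of 2 of Hif1a. Over all members it was 25 of 50 (50%), against 39.5% of all stress peaks. Only the central 300 bases were counted. The printed promoter windows of Hif1a and P4ha1, which hold the core, lie inside stress peaks of these genes but outside the counted bases.

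Epas1 had 11 stress and 5 BM peaks by name although its RNA was near 0 in both populations. Some in each list lie in introns of another gene, in stress BFU-E at -217725 to -160584 bases from the Epas1 start. Others in each list are intergenic. The Epas1 promoter was open in both, at chr17:86752827-86753825 in stress BFU-E and chr17:86752801-86753798 in BM BFU-E, with scores of 1000. Of its 6 stress peaks without a BM peak, 5 lie inside the gene. They are chr17:86798035-86798382 and chr17:86801883-86802980 in intron 2, chr17:86814362-86814643 in intron 6, chr17:86825103-86825773 in intron 9 and chr17:86832639-86832879 in the 3′ UTR, with scores of 729, 1000, 620, 624 and 647. The sixth, chr17:86592953-86593608 with score 926, lies in an intron of another gene, at -160584 bases from the Epas1 start. No BM peak lay inside Epas1.

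Vegfa had 7 peaks in stress BFU-E and 3 in BM BFU-E, with the promoter open in both (chr17:46032212-46032994, score 1000, in stress BFU-E and chr17:46032206-46032994, score 776, in BM BFU-E). Here too the higher stress score stands in a list with higher scores over all genes. The 4 stress peaks of Vegfa without a BM peak were chr17:45893642-45894044, chr17:45974361-45974876, chr17:46027070-46028135 (inside the gene) and chr17:46040388-46041612, with scores of 589, 979, 1000 and 529. In the counts, Vegfa RNA was not higher in any stress library than in a BM library. Ddit4 had 9 stress and 6 BM peaks, with chr10:59950710-59950917, chr10:59964462-59965176 and chr10:59974152-59975117 in stress BFU-E only and the promoter open in both.

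Hif1a and Arnt had 2 peaks under their names in each population, and all of these were shared. A further stress peak over Arnt, chr3:95494378-95494676 with score 559, carries the name of Ctsk and overlaps no BM peak. The promoter peak of Hif1a was chr12:73907417-73908754 in stress BFU-E and chr12:73907400-73908773 in BM BFU-E, and that of Arnt chr3:95434076-95434899 in stress BFU-E and chr3:95434016-95434922 in BM BFU-E, each with score 1000. Egln2 had 2 stress peaks and 1 BM peak, and its second stress peak overlaps a BM peak that carries the name of Cyp2t4. Vhl had 2 stress peaks, of which chr6:113625334-113625813 in intron 1 had no BM counterpart, and 1 BM peak. For comparison, 65.6% of the 18139 genes with a peak in either list had more in stress BFU-E and 3.56% had fewer.

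**Figure D5:**
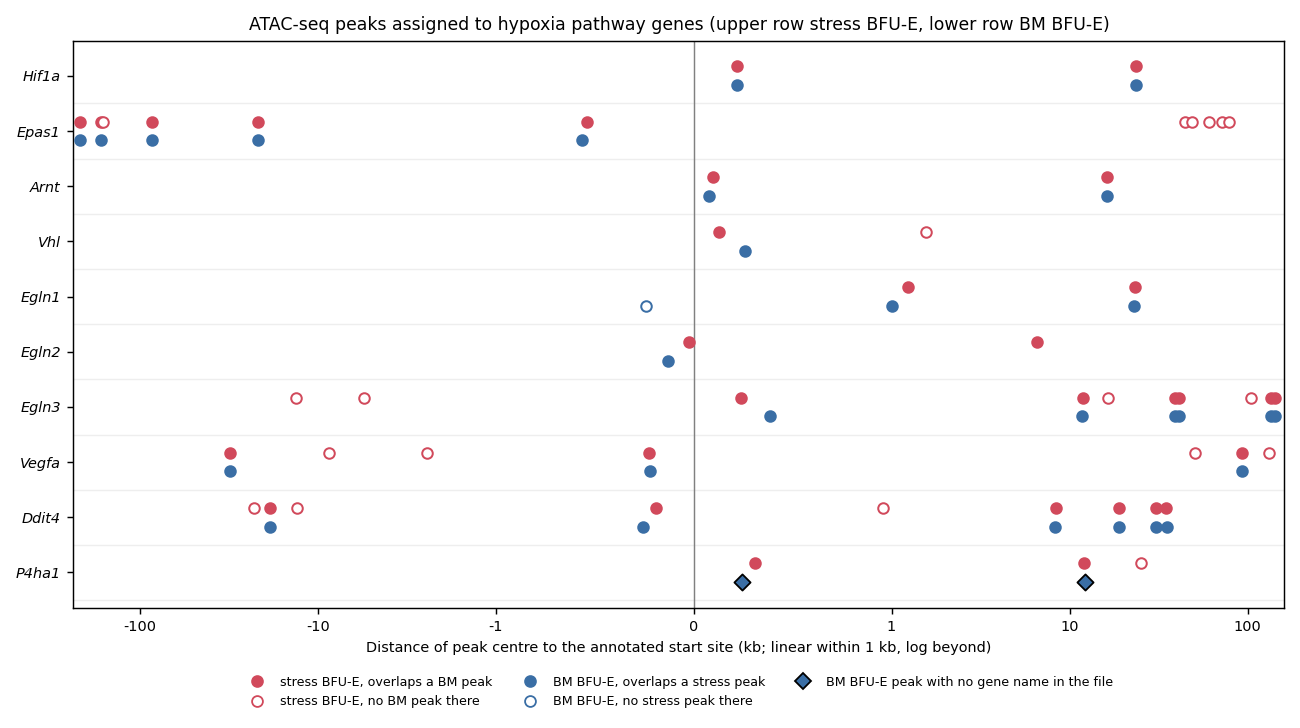
Distance of each peak centre to the annotated start (kb, linear within 1 kb and logarithmic beyond), with stress BFU-E peaks in the upper and BM BFU-E peaks in the lower row of each gene. Open circles have no overlapping peak in the other population, 19 in stress BFU-E and 1, at Egln1, in BM BFU-E, and diamonds are the 2 BM peaks over P4ha1 without a gene name.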

How the data were processed

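RNA-seq and ATAC-seq of sorted B6SJL progenitors were analysed from the deposited tables. Per the labels' protocols, a stranded kit for low RNA input and Nextera transposition were used. The submitters' processing notes name DESeq2, HOMER 4.8, STAR 2.6.0b-1 and Bowtie2 2.3.4.2 without the role of each, and the build mm10/GRCm38.

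The authors deposited raw read counts per gene for the 9 spleen libraries and for the 6 BFU-E libraries, with this second table keeping genes with a mean of at least 50 in 1 population or more. The authors also deposited RPKM values and annotated peak lists with a score per peak, per the file headers. The number of columns left unmapped was 0. The BM columns of the 12-library RPKM table do not match the BM counts (1.14% to 1.72% of genes within 2% of 1 common library size, against 100% for spleen columns), so BM levels come from the 6-library RPKM table, where 1 BM column has no replicate number. This departs from the plan.

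Counts were tested with edgeR 4.0.16 (quasi-likelihood, TMM, Benjamini-Hochberg adjusted p under 0.05) in R 4.3.3, on the BFU-E table as deposited and on spleen genes with a mean of at least 50. The fits were tested on simulated data. Alternatives were RLE factors, DESeq2 1.42.0, other filters, a replicate block and leaving out each library. Overlap of peaks (at least 1 bp) was found with bedtools 2.31.1. Library pairs of 1 population all differed beyond sampling noise. All 10 members are described, and of each wider list at most 6 called genes in each direction by size of change, or the 2 most abundant where none was called. Genes outside this rule are Gapdh, Hk2 and the 4 list genes at an unadjusted p under 0.05 between the BFU-E populations, chosen after their values were seen. The members and lists were chosen with earlier results of these data known.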

Additional observations from a re-analysis of the deposited data

How the results depend on the processing

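The count of members called stayed at 0 for stress BFU-E against BM BFU-E and for BFU-E against MPP under every alternative run. For CFU-E against BFU-E leaving out 1 library gave 2 to 4 members. For CFU-E against MPP it gave 1 to 3, and dropping the filter on low counts gave 4, which include Epas1. Over all genes, stress against BM BFU-E gave 12 calls, 685 with DESeq2 and a local dispersion trend, 579 with a mean trend (chosen after seeing the data), 3 with the replicate block and 0 to 27 without 1 library. DESeq2's default trend converged in some computing settings and not in others for these 6 libraries, so the trend was fixed. BFU-E against MPP gave 420, 668 with no filter and 225 to 336 without 1 library. The cause of these shifts was not tested. Replicate numbers were not taken to pair the libraries in the main fits. In the BFU-E table same-number deviations correlated at -0.0333 to -0.0187, and different-number ones at -0.0141 to 0.0356. In the spleen table same-number deviations correlated at 0.0146 to 0.139, and different-number ones at -0.098 to 0.0294. Spleen libraries of 1 number may therefore be weakly paired, which only the replicate block takes into account. With the replicate block Hif1a passed for CFU-E against MPP (adjusted p = 0.048), as it did with DESeq2 (0.048), with no filter (0.021) and without MPP replicate 2 (0.0078 by edgeR's quasi-likelihood test). The block also gave Egln1 a log2 fold change of 0.17 for stress against BM BFU-E, beside -0.08 without it, and Egln3 one of 4.76, beside 2.44, with neither called. Some small log2 fold changes changed sign when 1 library was left out. They ran between -0.44 and 0.65 for Egln1 in stress against BM BFU-E. For BFU-E against MPP they ran between -0.06 and 0.29 for Hif1a and between -0.04 and 0.33 for Vhl. For CFU-E against BFU-E they ran between -0.06 and 0.13 for Arnt and between -0.03 and 0.24 for Egln2. For CFU-E against MPP they ran between -0.43 and 0.01 for Vhl, -0.19 and 0.1 for Egln2 and -0.26 and 0.05 for Vegfa. In the 12-library table the BM levels of 6 members moved, as for Vhl (34.6 RPKM), Egln2 (52.7 RPKM) and Egln3 (4.86 RPKM). Egln2 and Egln3 were higher there in every BM library than in any stress BFU-E library, the reverse of their direction in the counts. Vegfa overlapped there, at 4.35 to 10.92 RPKM in BM BFU-E and 4.43 to 4.72 RPKM in stress BFU-E. With peak scores of at least 540 the members had 48 stress and 25 BM peaks. Low counts limit Epas1, Ddit4 and Egln3 most.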
